A study of Mus musculus with 4 samples.

Results

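The Wnt pathway genes described here are 10 components and feedback regulators of Wnt signalling: Lrp5, Lrp6, Rnf43, Znrf3, Axin1, Axin2, Apc, Gsk3b, Ctnnb1 and Tcf7l2. They were chosen by gene symbol among 19938 genes that Affymetrix probe sets with exactly 1 symbol could name, and each of the 10 had 1 such probe set. RNA came from regulatory T (Treg) cells, the Foxp3-dependent CD4 T cells that hold immune responses in check, sorted from C57Bl6 mice aged 6 to 8 weeks by their yellow fluorescent protein (YFP). Control mice were Cyld+/+ Foxp3-yfp-cre (called WT) and knockout mice were Cyld fl/fl Foxp3-yfp-cre (called CYLD KO), with 2 arrays each. Both genotypes carried the Cre recombinase and YFP expressed from Foxp3, so deletion depends on Foxp3 expression. The source tissue is labelled as spleen plus lymph nodes, whereas the sorting step names the spleen.

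Wnt proteins bind Frizzled receptors together with LRP5 or LRP6. This blocks a destruction complex of AXIN, APC, casein kinase 1 and GSK3 that otherwise marks beta-catenin (Ctnnb1) for degradation, and the stabilised beta-catenin acts with TCF/LEF transcription factors. RNF43 and ZNRF3 are membrane ubiquitin ligases that remove Frizzled receptors from the surface, and Axin2, Rnf43 and Znrf3 are known as target genes through which the pathway limits itself. CYLD, a deubiquitinase best known for limiting NF-kB signalling, is also known to remove lysine-63-linked ubiquitin from Dishevelled, the adaptor below Frizzled. In T cells the TCF/LEF factors in use are mainly TCF-1 and LEF1.

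Knockout Treg cells had 50.8% of the WT level of Znrf3 and 50.2% of that of Tcf7l2, and 1.90 times the WT level of Rnf43. The paired receptor-removing ligases moved in opposite directions. The other 6 genes tested, Lrp6, Axin1, Axin2, Apc, Gsk3b and Ctnnb1, did not pass the test, and Lrp5 was too dim to be tested. Tcf7l2 passed the filter on dim genes only through its WT arrays, and both its knockout values lay in the range where background makes up much of the signal, so its percentage is a rough value. Of the 9 genes tested, 1 was higher and 2 were lower at an adjusted p under 0.05 in limma, beside 4.79% of all 13956 genes tested that were higher and 3.5% that were lower. The median log2 fold change of the 9 genes was -0.20, against -0.023 over all genes tested, and 8 of the 9 were negative, against 7438 of 13956. Of these 8, Ctnnb1 (-0.030) and Apc (-0.023) turned positive when WT replicate 1 was left out. The 10 genes were chosen with earlier results of these data known, so these counts and medians describe the list and do not test it.

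The promoters of the genes that changed are shown where the RefSeq table (build GRCm38.p6) held them, as the 250 bases before each annotated start on the plus strand, 5′ to 3′; 5 of the 10 genes had an entry, Tcf7l2, Rnf43, Axin2, Ctnnb1 and Gsk3b, with 8 starts between them. Capitals mark matches to the TCF/LEF core, searched on both strands as CTTTGNN with each N limited to A or T.
Tcf7l2, first start, chr19:55741560-55741809: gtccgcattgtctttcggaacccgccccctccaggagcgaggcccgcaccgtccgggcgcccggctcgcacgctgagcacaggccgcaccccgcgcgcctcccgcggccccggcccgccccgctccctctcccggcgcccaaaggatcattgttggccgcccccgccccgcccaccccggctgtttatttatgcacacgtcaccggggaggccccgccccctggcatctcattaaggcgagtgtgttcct
Tcf7l2, second start, chr19:55895071-55895320: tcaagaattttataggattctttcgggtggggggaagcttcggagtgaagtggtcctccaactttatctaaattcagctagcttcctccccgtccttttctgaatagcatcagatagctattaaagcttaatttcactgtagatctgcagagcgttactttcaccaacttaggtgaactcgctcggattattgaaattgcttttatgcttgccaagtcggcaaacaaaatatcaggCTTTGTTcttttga
Rnf43, first start, chr11:87662837-87663086: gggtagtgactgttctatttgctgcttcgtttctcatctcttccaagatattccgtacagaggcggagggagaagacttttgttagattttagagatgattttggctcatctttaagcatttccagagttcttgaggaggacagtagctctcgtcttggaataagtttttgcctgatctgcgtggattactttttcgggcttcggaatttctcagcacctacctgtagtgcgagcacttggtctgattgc
Rnf43, second start, chr11:87699647-87699896: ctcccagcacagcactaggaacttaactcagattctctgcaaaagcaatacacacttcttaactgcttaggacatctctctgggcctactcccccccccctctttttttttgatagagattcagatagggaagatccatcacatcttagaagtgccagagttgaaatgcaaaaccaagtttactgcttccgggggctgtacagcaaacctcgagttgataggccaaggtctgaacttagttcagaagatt
Only the second Tcf7l2 window held a match among these 8 windows, 1 TCF/LEF core beginning 14 bases before the start. Of 32851 such windows in the table, 14.8% held a TCF/LEF core. The first Tcf7l2 window was 72.8% G and C and the second 40.8%, against a median of 52.4% over all windows; the Rnf43 windows were 44.4% and 45.2%. The array does not show which start was in use, and a match describes letters, not binding.

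The values are deposited intensities on a linear scale from 26.6 to 7205, with array medians between 99.0 and 105. Cyld itself read 524 and 502 in WT and 284 and 218 in CYLD KO (log2 fold change -1.04 ± 0.17, limma adjusted p = 8.96e-08). The labels do not give the deleted part, so the remaining signal does not measure deletion. Foxp3, the defining Treg gene, read 2016 and 1881 in WT and 1697 and 1553 in CYLD KO, and 0 of 6 Treg and T cell markers changed in limma, with 1 of them at an unadjusted p under 0.05, as had 2786 of all 13956 genes in that fit. The knockout arrays differed from each other in Y-linked Kdm5d, at 268 on replicate 1 and 127 on replicate 2, against 271 and 275 in WT. X-linked Xist read 1306 and 1403 in WT and 1630 and 2321 in CYLD KO. Y-linked Eif2s3y read 253 and 219 in WT and 221 and 98.9 in CYLD KO, with overlapping groups. Y-linked Uty read 225 and 220 in WT and 283 and 132 in CYLD KO. By genotype, Kdm5d and Eif2s3y were lower (limma adjusted p = 0.0160 and 0.00243) and Xist higher (0.0291), while Uty did not pass (0.546). The calls of Kdm5d and Eif2s3y rest on knockout replicate 2, where Uty was low as well. The part of sex in the other changes was not tested. The mean of 9 proliferation genes was above WT by 0.58 on knockout replicate 1 and 1.32 on knockout replicate 2 (log2). Separate mice per replicate are not stated in the labels, so the spread behind the p-values is only that between these samples. In the main limma fit this spread was shared over all genes, with the same standard error of 0.17 for each. In RNA from bulk cells, fewer cells of a type and less RNA per cell cannot be told apart.

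**Figure D1:**
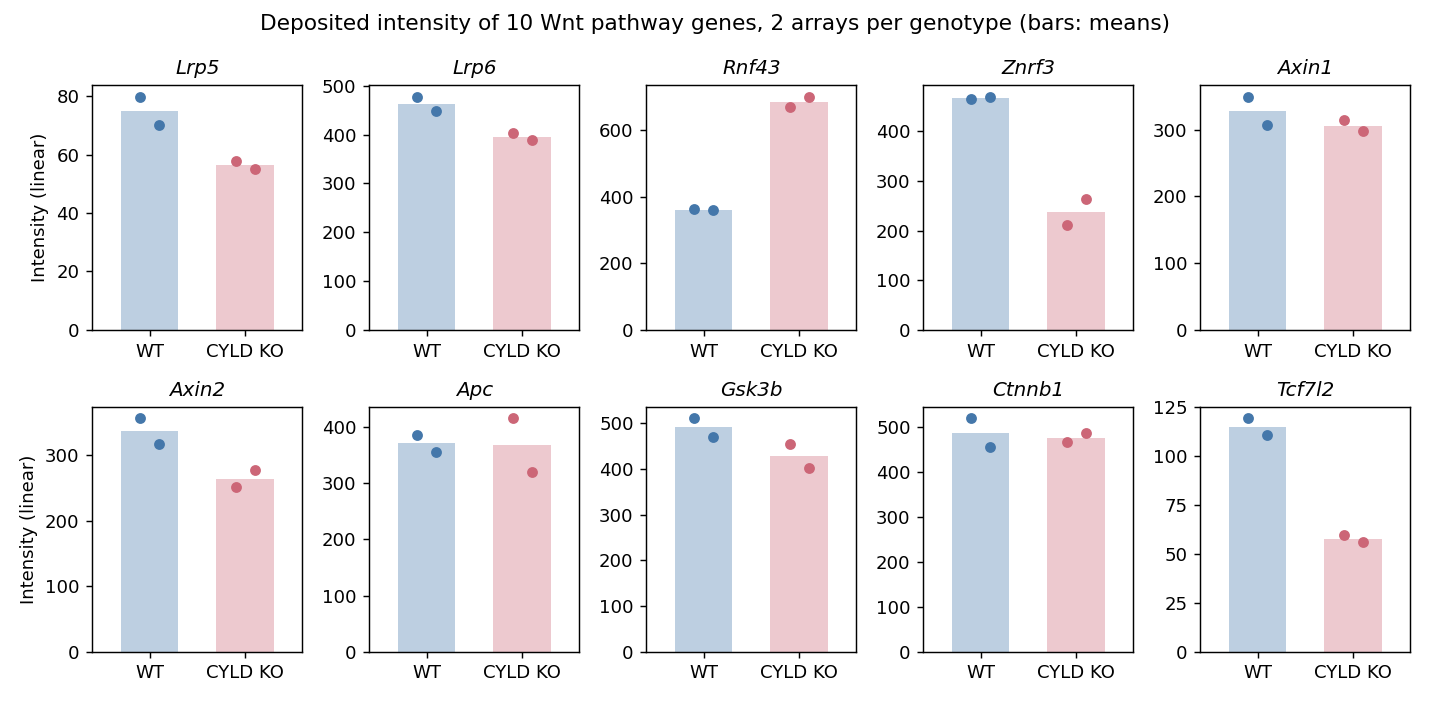
Deposited linear intensity of each gene on the 4 arrays (points) with the mean of each genotype (bars), each panel on its own axis from 0. Znrf3 and Tcf7l2 are lower and Rnf43 higher on both CYLD KO arrays, while the points of Ctnnb1, Apc and Axin1 overlap between genotypes.

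Among the receptor-side genes, the ligases changed, the coreceptor gene Lrp6 did not pass and Lrp5 was not tested. Znrf3 read 465 and 469 on the WT arrays and 212 and 263 on the CYLD KO arrays. Both knockout values lay far below both WT values, and the knockout arrays differed more from each other than the WT arrays did. The mean fell from 467 ± 2.96 to 238 ± 36.3 (SD, n = 2), a log2 fold change of -0.98 with a 95% interval from -1.31 to -0.65, the 54th largest fall of all genes tested (limma adjusted p = 5.95e-07).

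Rnf43, the close relative of Znrf3, read 362 on both WT arrays and 672 and 702 on the CYLD KO arrays. The groups were widely separated and the replicates close. Its mean rose from 362 ± 0.530 to 687 ± 21.3 (SD, n = 2), a log2 fold change of 0.92 with a 95% interval from 0.59 to 1.25 (limma adjusted p = 3.56e-06), the 146th largest rise. The intervals of the paired ligases lay on opposite sides of 0 under a fit that gives every gene the same standard error of 0.17.

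Lrp6, which encodes a Wnt coreceptor, read 478 and 448 in WT and 403 and 388 in CYLD KO. Both knockout values were below both WT values, but such separation was common: it held for 5 of the 9 genes in the lower and 1 in the higher direction, and for 26.2% and 22.5% of all genes tested (48.7% in either direction). Its log2 fold change was -0.23 (95% interval -0.56 to 0.11, limma adjusted p = 0.483). Lrp5, the related coreceptor, read 79.8 and 70.2 in WT and 57.6 and 55.2 in CYLD KO. Its mean lay below the 30th percentile of all genes, where background makes up much of the signal, so it was left out of the test. With no filter its log2 fold change was -0.40 (limma adjusted p = 0.160).

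The destruction complex genes did not pass the test. Axin2, the feedback scaffold often read as a reporter of pathway activity, came closest, at 356 and 317 in WT and 251 and 277 in CYLD KO. The groups did not overlap, and its log2 fold change was -0.35 with a 95% interval from -0.68 to -0.014, but its limma p of 0.0410 became 0.224 after adjustment over all genes. Axin1, the constitutive scaffold of the same complex, read 349.6 and 307 in WT and 314 and 298 in CYLD KO, with overlapping groups and a log2 fold change of -0.10 (95% interval -0.43 to 0.23).

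Apc, a tumour suppressor and scaffold of the complex, read 387 and 356 in WT and 415.5 and 321 in CYLD KO. The WT values lay between the knockout values, so the knockout arrays differed by more than the group means. Its log2 fold change was -0.023 (95% interval -0.36 to 0.31), and the sign turned when each array was centred on its median (0.0032). Gsk3b, a kinase of the complex, read 511 and 471 in WT and 454 and 402 in CYLD KO. The groups did not overlap, and its log2 fold change was -0.20 (95% interval -0.53 to 0.13, limma adjusted p = 0.551).

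Ctnnb1 and Tcf7l2 act at the end of the pathway. Ctnnb1 read 520.2 and 457 in WT and 467 and 487 in CYLD KO, so both knockout values lay between the WT values. Its log2 fold change was -0.030 with a 95% interval from -0.36 to 0.30 (limma adjusted p = 0.943), which leaves room for a change of transcript in either direction and says nothing of beta-catenin protein.

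Tcf7l2, a TCF/LEF factor best known in intestinal epithelium, read 119 and 111 in WT and 59.7 and 56.0 in CYLD KO. The groups were clearly apart, although both knockout values lay below 77.4, the intensity that matches the filter on dim genes. Means were 115 ± 5.94 in WT and 57.8 ± 2.57 in CYLD KO (SD, n = 2), with a log2 fold change of -0.98 (limma adjusted p = 6.07e-07). The gene entered the test only because its WT values lifted its mean over the filter, so this p rests on the group where it is high, and with background in the signal neither the fold nor its interval is exact. In the fit to every gene with no filter, the adjusted p was 3.76e-07.

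**Figure D2:**
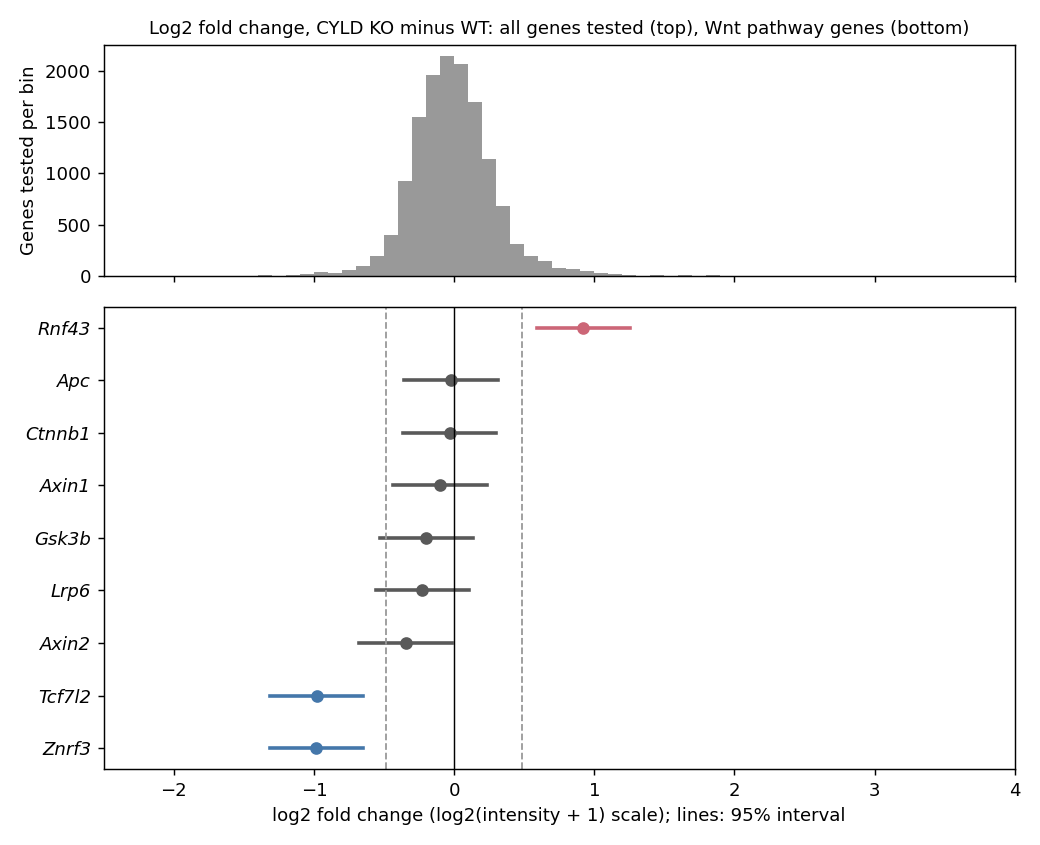
Top, number of genes tested per bin of 0.1 in log2 fold change, CYLD KO minus WT. Bottom, log2 fold change of each of the 9 Wnt pathway genes tested (points) with its 95% interval (lines), coloured where the adjusted p is under 0.05; dashed lines stand at 0.49 on either side of 0, the smallest change called. Znrf3 and Tcf7l2 lie near -0.98, the second with knockout values below the filter intensity, and Rnf43 at 0.92, and the other 6 genes lie inside the dashed lines.

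The calls of Znrf3, Tcf7l2 and Rnf43 depend on the variance that limma shares across genes. With each gene's own variance their unadjusted p-values were 0.0243, 0.00486 and 0.00117 in the same limma model without pooling, and their adjusted p-values 0.324, 0.239 and 0.214, where 0 of 13956 genes passed and 1814 had an unadjusted p under 0.05. Without WT replicate 1 or WT replicate 2 the mean of Tcf7l2 dropped below the filter, and the gene was not tested.

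Markers of another cell type moved with the genotype. Of 13 macrophage markers tested, 0 were higher and 12 were lower in CYLD KO, beside 4.79% and 3.5% of all genes tested. For Spic, Slc40a1 and Adgre1, among the 12, both CYLD KO values lay below 77.4, the intensity that matches the filter on dim genes. They entered the test only through their WT arrays, so the count rests in part on the group where the markers are high. The summed intensity of all 15 on the list was 3311 to 3653 in WT and 1375 to 1805 in CYLD KO. The defining markers Adgre1, at 177 and 141 in WT against 64.7 and 74.2, and Csf1r, at 230 and 214 against 73.6 and 102, were among the 12 lower. Lyz2, on the same list, did not pass, at 102 and 104 in WT against 76.1 and 130 in CYLD KO (limma adjusted p = 0.903). No marker read 0, since the lowest intensity of any probe set was 26.6. On CYLD KO replicates 1 and 2 the macrophage markers stood 1.30 and 0.92 below the WT mean (log2, mean over 13 genes), Tcf7l2 0.94 and 1.03 below and Znrf3 1.14 and 0.83 below. The part of macrophage RNA in the lower Tcf7l2 and Znrf3 values was not tested. All 9 proliferation genes tested were higher in CYLD KO, beside 4.79% of all genes tested. Their summed intensities were 2716 to 2945 in WT and 4332 to 7385 in CYLD KO. Rnf43 stood 0.89 and 0.95 above the WT mean on knockout replicates 1 and 2; the part of proliferation in it was not tested. Of the other marker lists, Eomes was higher among 4 CD8 T and NK cell markers tested and Pecam1 lower among 3 stromal and endothelial markers; 0 of 2 B cell and 0 of 4 dendritic cell markers passed in limma, with 1 and 0 of them at an unadjusted p under 0.05 (2786 of 13956 among all genes), and all 5 granulocyte markers were too dim to be tested.

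**Figure D3:**
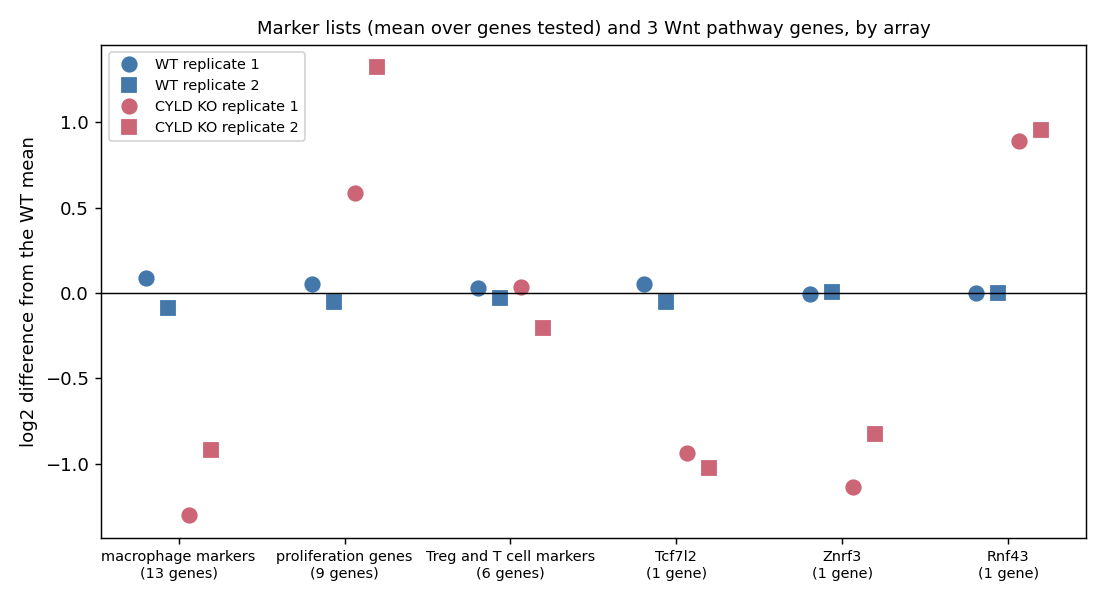
Log2 difference of each array from the WT mean, for the mean of 13 macrophage, 9 proliferation and 6 Treg and T cell markers and for 3 Wnt pathway genes. The macrophage markers lie 0.92 to 1.30 below WT on the CYLD KO arrays, and some of them passed the filter on dim genes only through their WT arrays. On knockout replicates 1 and 2 the proliferation genes lie 0.58 and 1.32 above WT, and Rnf43 lies 0.89 and 0.95 above it. The part of either list in the 3 genes was not tested.

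Other Wnt pathway genes were examined by role. Of 102 further Wnt pathway genes on 6 lists by role, 100 had a probe set of their own and 71 were tested; 1 was higher and 3 were lower in limma, beside 8.3% of all genes tested that changed, and their median log2 fold change was 0.026. Among 16 ligand and secretion genes tested, Wls was higher and 0 were lower. Wls, the carrier that takes Wnt proteins to the cell surface, read 496 and 521 in WT and 985 and 776 in CYLD KO (log2 fold change 0.78, limma adjusted p = 1.67e-04), and had an adjusted p of 0.0509 without WT replicate 1. None of the 10 receptor genes or the 7 extracellular and surface inhibitor genes tested passed in limma, with 3 and 0 of them at an unadjusted p under 0.05 (2786 of 13956 among all genes). Some of these genes read only a little above 77.4, the intensity that matches the filter, so passing the filter does not show that they are expressed.

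In the cytoplasm, 0 of 15 genes tested were higher and 1 was lower. Frat1, which encodes a GSK3-binding protein that favours beta-catenin, read 249.6 and 199.6 in WT and 138 and 162 in CYLD KO (log2 fold change -0.57, limma adjusted p = 0.0127). That call was lost without WT replicate 1 (0.581), WT replicate 2 (0.0534) or CYLD KO replicate 1 (0.0792). The Dishevelled genes did not pass: Dvl1 read 145 and 132 in WT and 104 and 98.7 in CYLD KO, with a log2 fold change of -0.45 and a limma adjusted p of 0.0858. For Dvl2 and Dvl3 the log2 fold changes were -0.30 and 0.29, with adjusted p-values of 0.322 and 0.338.

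Of 14 nuclear factors tested, 0 were higher and 1 was lower. Lef1, a TCF/LEF factor of resting T cells, read 2187 and 2148 in WT and 1324 and 1406 in CYLD KO (log2 fold change -0.67, limma adjusted p = 0.00226), with an adjusted p of 0.128 without WT replicate 1 and 0.0924 without WT replicate 2. Tcf7, which encodes TCF-1, was not analysed here. Among 9 other target genes tested 0 were higher and 1 was lower: Myc, the growth regulator, read 878 and 847 in WT and 425 and 437 in CYLD KO (log2 fold change -0.998, limma adjusted p = 3.53e-07).

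**Figure D4:**
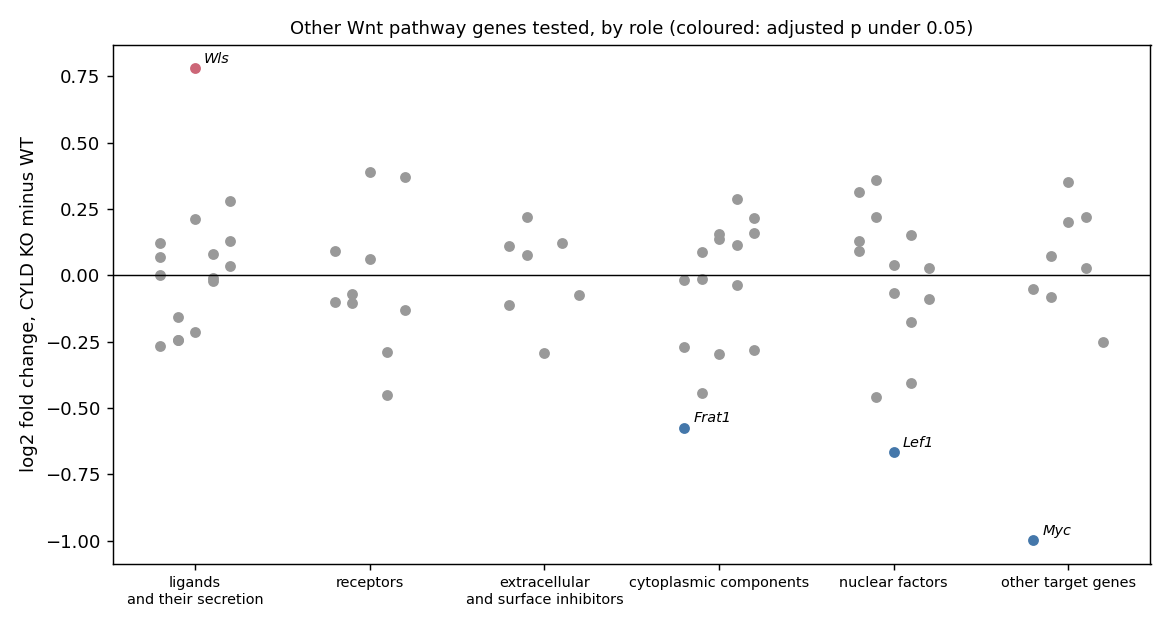
Log2 fold change, CYLD KO minus WT, of the 71 other Wnt pathway genes tested, in 6 groups by role; each point is a gene, coloured and named where the adjusted p is under 0.05. Wls alone is coloured above 0, and Frat1, Lef1 and Myc below it.

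The genes whose arrays most resembled each changed gene were found by Euclidean distance of log2 values, each gene centred on its own mean over the 4 arrays, among 13044 named genes tested. Closest to Tcf7l2 were Tsc22d3, Rflnb and Ephx1, at distances of 0.027 to 0.067, against a median of 0.999. Znrf3 lay closest to Ccr7 and S1pr1, receptors that guide T cell traffic through lymph nodes, and to C1qc, a complement gene on the macrophage list, at 0.050 to 0.074 (median 1.03). For Rnf43 the closest were Nebl, Dkkl1 and Cxcr3, at 0.031 to 0.040 (median 0.98). With 4 arrays in 2 genotypes, many genes share such a pattern, and the likeness is a description only.

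**Figure D5:**
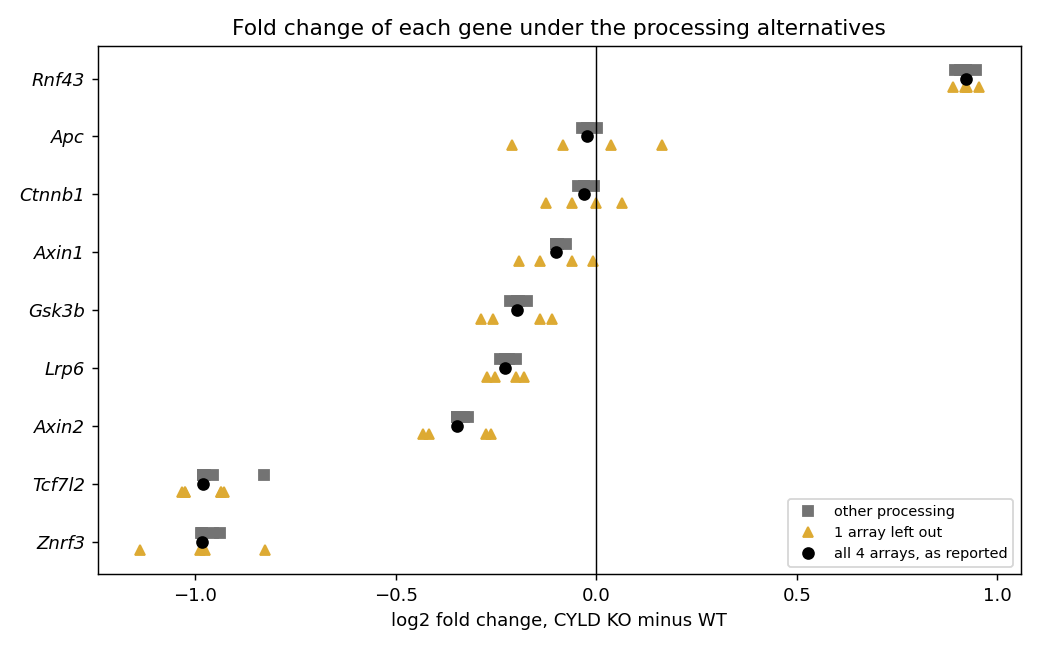
Log2 fold change of each of the 9 genes tested with all 4 arrays (circles), under other processing (squares) and with 1 array left out (triangles). Znrf3 lies between -1.14 and -0.83 and Rnf43 between 0.89 and 0.95, whereas the values of Apc and Ctnnb1 cross 0. Tcf7l2, with knockout values below the filter intensity, lies between -1.03 and -0.83. Its triangles without a WT array come from fits chosen after seeing the data, which bypass the filter and do not bear on stability.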

How the data were processed

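Intensities of 4 Affymetrix Mouse Gene 1.0 ST arrays were taken as deposited by the authors, 1 value per probe set and array on a linear scale; per the labels' protocols, total RNA from a column kit was made into biotinylated cRNA. The method of summarising, background correction and scaling of the arrays was not given in the sources used here. Of 35557 probe sets, 21789 had 1 gene symbol in a platform annotation, 1621 several and 12147 none. Each gene was represented by its probe set of highest mean, values became log2(value + 1), and the 13956 genes with a mean log2 value over 6.29, the 30th percentile, were tested with limma 3.58.1 in R 4.3.3 (lmFit, eBayes, Benjamini-Hochberg over all genes tested, threshold 0.05). Every adjusted p is from limma. The number of arrays, 2 per genotype, limits the precision. In a simulation of this comparison with 13956 genes, the test found 47.8% of the 1.5-fold changes and 99.1% of the 2-fold changes. Wrong calls numbered 6.8 per run. The simulation gave all genes and both genotypes the same spread, as in the main fit. On the real arrays the SD of the log2 difference between replicates was 0.206 in WT and 0.269 in CYLD KO. These rates therefore describe the simulated data only. They are not the power of the test on these arrays, where 0 of 13956 genes passed with each gene's own variance. The 10 genes and all lists were chosen with earlier results of these data known. Named genes are the 10, Cyld, up to 4 changed genes per role list, Dvl1, Dvl2, Dvl3, Tcf7, Lef1, Myc and the 3 nearest genes of each changed gene. Foxp3, Kdm5d, Eif2s3y, Uty, Xist, Adgre1, Csf1r, Spic, Slc40a1, Lyz2, Eomes and Pecam1 were named besides. Alternatives covered the filter, scaling, pseudocount, variance model, probe set choice, replicate block and each array left out; fits that left out an array but kept the same genes were chosen after seeing the data.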

Additional observations from a re-analysis of the deposited data

How the results depend on the processing

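The direction and call of Znrf3 and Rnf43 held under every alternative run except the fit without pooled variances, where they kept their direction only. Tcf7l2 passed the filter only through its WT arrays, so its calls under settings that tested it do not bear on stability. Without pooling, 0 genes were higher and 0 lower, among all genes, the 10 genes and the other pathway genes alike. Over genes above the median intensity only 1 of the 10 was lower, because Tcf7l2 fell below the filter. It also fell below the filter when WT replicate 1 or WT replicate 2 was left out. Fits chosen after seeing the data kept Tcf7l2 in the test with 1 WT array left out. Its log2 fold change was then -0.93 without WT replicate 1 and -1.03 without WT replicate 2. These fits bypass the filter, so they do not bear on stability either. Leaving out 1 array gave 254 to 898 higher and 110 to 768 lower genes among all tested (288 and 110 without WT replicate 1, 254 and 175 without WT replicate 2, 898 and 768 without CYLD KO replicate 1), 1 higher and 1 to 2 lower of the 10, and 0 to 1 higher and 1 to 4 lower of the other pathway genes. With an intensity trend 2 other pathway genes were higher, the second being Cd44. The log2 fold change of Ctnnb1 ran from -0.12 without WT replicate 2 to 0.064 without WT replicate 1; that of Apc ran from -0.21 without CYLD KO replicate 1 to 0.16 without CYLD KO replicate 2, and was 0.037 without WT replicate 1 and 0.0032 with each array centred on its median. The cause was not tested. With the replicate number as a block, 1032 genes were called against 1158, and 1 of the 10 was higher and 2 were lower; the numbers are not known to pair the samples (correlation of deviations -0.092), and no call of the 10 changed. Among the 10 genes, intensities near the lower end limit Lrp5 and Tcf7l2.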
